A study of Canis lupus familiaris with 18 samples.

Results

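The 7 genes described here carry out antigen presentation by class II molecules of the major histocompatibility complex (MHC). They were DLA-DRA, CD74, CIITA, DLA-DMA, DLA-DMB, DLA-DOA and CTSS. They were picked by symbol from the 29993 genes in the deposited count table, and all 7 were listed there. In high grade oligodendroglioma (HGO), a glial brain tumor, none of them was called different between French bulldogs and the comparison group of boxers and Boston terriers. Levels overlapped between the breeds for each gene, and 1 French bulldog library, set apart throughout, held more of each than any other.

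Class II molecules are pairs of an alpha and a beta chain that display peptides from engulfed proteins to CD4+ helper T cells. In the dog their genes are named DLA, for dog leukocyte antigen. Dendritic cells, B cells and macrophages carry class II molecules, the microglia of the brain carry more of them when activated, and interferon gamma induces them in many other cells through the regulator CIITA. The invariant chain CD74 fills the groove of a new class II molecule until lysosomal proteases such as cathepsin S (CTSS) cut it away, after which the DM molecule (DLA-DMA with DLA-DMB) exchanges the remaining fragment for a peptide and the DO molecule (DLA-DOA with DLA-DOB) holds DM in check.

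Total RNA from formalin-fixed, paraffin-embedded HGO of the forebrain, resected from pet dogs before trial treatment, was sequenced in 18 libraries. These came from 11 French bulldogs, 4 boxers and 3 Boston terriers, labelled as a dog each, and no normal brain was among them. The groups were set by the breed that the labels give, and the dogs' ages, sexes and tumor sites did not enter the comparisons. The labels of French bulldogs 2 and 8 carry the same case number, so these 2 libraries may not be from separate dogs, and the p-values measure the spread between libraries. The study gives both the same age, sex and tumor site. Their counts were the most alike of any pair of libraries, with a chi-square of 8.72 per degree of freedom over genes where the next pair, French bulldog 3 and boxer 5, had 26.4. They differed by more than sampling noise, as 2 pieces of the same tumor also could, so this does not show separate dogs. They were kept as the 2 libraries that the labels give, with their sum as an alternative. French bulldog 6 was left out of every breed comparison, which leaves 10 French bulldogs against 7 dogs, and its values are given on their own at the end.

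Between 8212452 and 13169880 reads per library were counted on genes. At that depth a level of 3 counts, taken as the lowest that could be told from none, was 0.228 to 0.365 CPM (counts scaled by library size), a limit that covers counting error only. The boxer and Boston terrier libraries carry 2 series of label numbers (series A with 3 boxers and 1 Boston terrier, series B with 1 boxer and 2 Boston terriers) and the French bulldog libraries a series of their own, so library series and French bulldog against comparison cannot be told apart. In the 17 libraries compared, the oligodendrocyte lineage factors OLIG2 and SOX10 had at least 1137 and 1986 counts, so the labelled tumor type had its markers. RNA came from whole tissue, in which fewer cells of a type and less RNA per cell cannot be told apart.

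Of the 7 genes, 6 passed the filter on low counts, which 16403 genes passed in all, and DLA-DOA did not. RefSeq places DLA-DRA, DLA-DMA, DLA-DMB and DLA-DOA on dog chromosome 12, in the MHC, and CD74, CIITA and CTSS on chromosomes 4, 6 and 17. Levels below are CPM scaled by TMM, a normalization for library composition, and they are not divided by gene length, so they are compared between libraries and not between genes. Fold changes are log2 values from edgeR's quasi-likelihood test, with p-values adjusted over all genes tested by Benjamini-Hochberg and 0.05 as the threshold.

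DLA-DRA (ENSCAFG00000000803), the alpha chain of the DR molecule that binds the peptide, ranged in French bulldogs from 9.08 CPM in French bulldog 2 to 120 CPM in French bulldog 11, with a median of 35.3 CPM. The 4 boxers were at 9.50, 22.2, 51.7 and 24.9 CPM and the 3 Boston terriers at 22.1, 21.8 and 40.4 CPM. French bulldogs 1, 3, 7 and 11, at 70.6 CPM or more, stood above every comparison library, while French bulldog 2 stood below all of them and the groups overlapped between. The means were 51.1 ± 41.3 CPM (SD, n = 10) and 27.5 ± 14.0 CPM (SD, n = 7), a log2 fold change of 0.89 (SE 0.52) that did not pass in edgeR's test (adjusted p = 0.548).

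CD74 (ENSCAFG00000018101), the invariant chain, ran from 23.8 CPM in French bulldog 2 through a median of 78.7 CPM to 280 CPM in French bulldog 11. It was 35.6, 71.1, 130 and 79.7 CPM in boxers and 59.7, 47.2 and 122 CPM in Boston terriers. The French bulldogs spread past the comparison group on both sides, with 4 libraries above its highest and 3 below its lowest. The means of 109 ± 86.6 CPM (SD, n = 10) and 77.9 ± 36.0 CPM (SD, n = 7) gave a log2 fold change of 0.48 (SE 0.48, edgeR adjusted p = 0.747). With a library left out it was 0.20, without French bulldog 11, to 0.65.

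CIITA (ENSCAFG00000018931), the coactivator that switches on the class II genes and CD74, was counted 2 to 92 times per library. It had 0.227 CPM in French bulldog 2, which is 2 counts and under the limit of 3, a median of 2.47 CPM and a highest level of 9.52 CPM in French bulldog 11. Boxers had 0.881, 2.83, 4.63 and 1.42 CPM and Boston terriers 2.33, 1.81 and 4.12 CPM, so that 4 French bulldogs were above and 2 below the whole comparison group. The log2 fold change was 0.38 (SE 0.57, edgeR adjusted p = 0.854), and with a library left out it was 0.057 (without French bulldog 11) to 0.58 (without boxer 4).

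DLA-DMA and DLA-DMB, the chains of the peptide exchange molecule DM, had the smallest unadjusted p-values of the members over the 17 libraries. With French bulldogs 2 and 8 summed this held for DLA-DMB only (edgeR unadjusted p = 0.0309). There DLA-DMA had 0.0633, behind DLA-DRA at 0.0556 and CTSS at 0.0601. DLA-DMA (ENSCAFG00000000848) ranged in French bulldogs from 6.23 CPM in French bulldog 4 to 24.1 CPM in French bulldog 1, with a median of 13.3 CPM. Boxers had 9.70, 9.86, 8.21 and 10.9 CPM and Boston terriers 12.6, 4.95 and 6.69 CPM. Of the 10 French bulldogs, 7 were above the highest comparison library, Boston terrier 2, with French bulldogs 2 and 8 among these 7. None was below the lowest, and the other 3 lay among the comparison libraries. The means were 13.6 ± 5.45 CPM (SD, n = 10) and 8.98 ± 2.58 CPM (SD, n = 7). The log2 fold change of 0.60 (SE 0.27) had an unadjusted p of 0.0377 and an adjusted p of 0.442 in edgeR's test.

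DLA-DMB (ENSCAFG00000051778) lay between 3.85 CPM in French bulldog 4 and 19.8 CPM in French bulldog 11, with a median of 7.26 CPM in French bulldogs. Levels were 5.29, 7.12, 6.76 and 7.85 CPM in boxers and 6.52, 4.21 and 4.46 CPM in Boston terriers. French bulldogs 1, 3, 5 and 11, at 9.61 CPM or more, made up the libraries above the comparison group, and the remaining French bulldogs overlapped with it or, for French bulldog 4, fell below it. The means of 9.93 ± 5.33 CPM (SD, n = 10) and 6.03 ± 1.39 CPM (SD, n = 7) gave a log2 fold change of 0.72 (SE 0.31, unadjusted p = 0.0311, edgeR adjusted p = 0.435).

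DLA-DOA (ENSCAFG00000000896), the alpha chain of DO, was close to the limit of detection. French bulldogs had between 0 and 24 counts of it and the comparison group between 0 and 10, with a median of 5 counts in each. French bulldog 2 and Boston terrier 7 had 0 counts, which allows a level of up to 3 counts, and 7 of the 17 libraries were at or under that limit. Fitted without the filter on low counts, its log2 fold change was 0.53 (SE 0.75, edgeR adjusted p = 0.811), and a breed difference was not detectable at this depth.

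CTSS (ENSCAFG00000012086), the protease that removes the invariant chain, had 9.90 CPM in French bulldog 4, a median of 23.5 CPM and 50.9 CPM in French bulldog 11. Boxers had 14.7, 21.4, 23.9 and 13.7 CPM and Boston terriers 12.0, 8.08 and 21.2 CPM. French bulldogs 1, 3, 10 and 11 were above all comparison libraries and none was below them. Means were 24.5 ± 13.2 CPM (SD, n = 10) and 16.4 ± 5.82 CPM (SD, n = 7), with a log2 fold change of 0.58 (SE 0.32, edgeR adjusted p = 0.533).

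**Figure D1:**
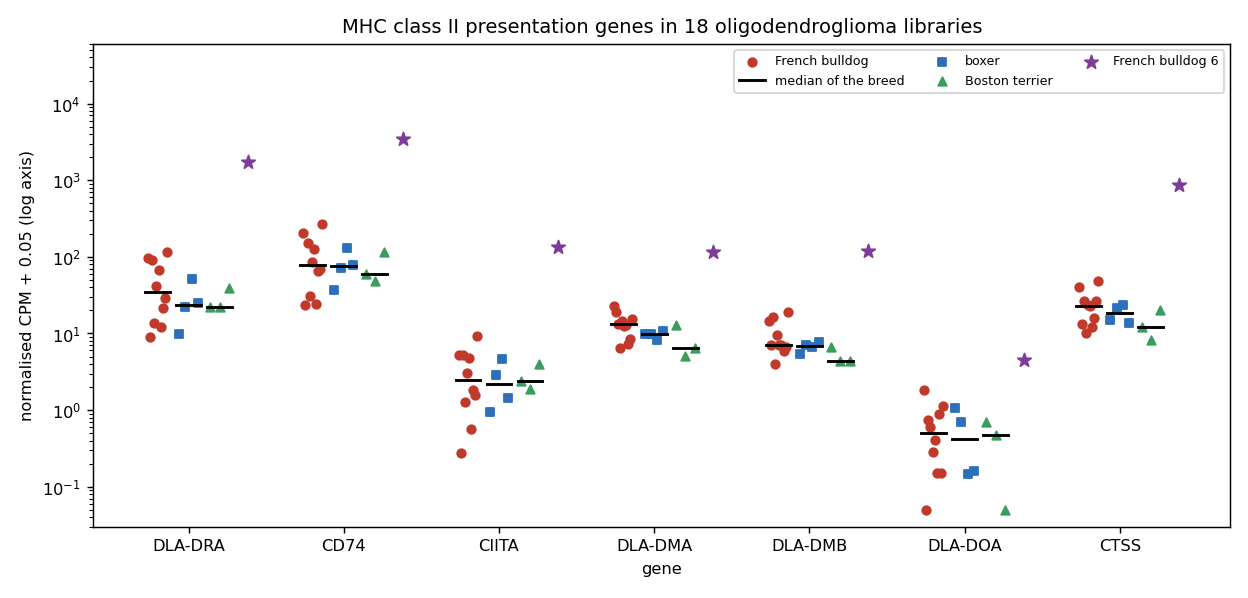
Normalised CPM of the 7 genes in each of the 18 libraries, plus 0.05 and on a log axis, with a black line for the median of each breed and a star for French bulldog 6, which is not in the median. All 18 libraries are scaled together here, so values differ slightly from those of the 17 libraries alone. The breeds overlap for every gene, and the star stands above the other libraries for all 7.

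The breed comparison asked whether French bulldog HGO differs from that of boxers and Boston terriers, breeds of the same clade. By edgeR's test 0 of the 6 members were called at an adjusted p under 0.05, where the share of all genes called was 0.0183%, or 3 of 16403. At an unadjusted p under 0.05 there were 2 members, DLA-DMA and DLA-DMB, both higher in French bulldogs, where 10.8% of all genes had such a p and 6.92% also were higher in French bulldogs. DESeq2 called 0 members and had the same number at an unadjusted p under 0.05, where it called 0.281% of all genes and 9.39% had such a p, and limma-voom had 0 members at either, where it called 0.0122% of all genes and 9.99% had an unadjusted p under 0.05. With each library left out in turn, DLA-DMB had an unadjusted p under 0.05 in 11 of 17 fits, DLA-DMA in 7 and CTSS in 1. All 6 fitted fold changes were above 0, as were 55.4% of those of all genes, and the median log2 fold change was 0.59 over the 6 members and 0.05 over all genes. Since most of these genes correlated with each other across libraries, with DLA-DMA apart from DLA-DRA, CD74 and CIITA, these signs are not 6 separate observations.

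The width of the intervals shows what these libraries could tell. For DLA-DRA the 95% interval of the log2 fold change ran from -0.12 to 1.91, and for CIITA from -0.74 to 1.50, so neither a level equal to that of the comparison group nor a doubling was outside it. For DLA-DMB it ran from 0.11 to 1.32 before any adjustment for the number of genes tested. Against series A alone the log2 fold changes of the 6 genes were 0.29 to 0.92, and against series B alone 0.39 to 0.85, with 0 members called in each.

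With the breeds of the comparison group taken apart in a fit of all 3 breeds, all 6 fitted fold changes were above 0 against each breed (all genes, 51.6% against boxers and 56.6% against Boston terriers), and again no member was called. Against boxers the log2 fold change was 0.89 (SE 0.64) for DLA-DRA and 0.38 (SE 0.38) for CTSS, which were the ends of the range, with 0 of 6 members at an unadjusted p under 0.05 in edgeR or DESeq2 (all genes, 8.93% unadjusted and 0% adjusted in edgeR, 8.59% and 0.13% in DESeq2). Against Boston terriers DLA-DMB had the largest value, 0.94 (SE 0.42, unadjusted p = 0.0407, edgeR adjusted p = 0.930), and it alone had an unadjusted p under 0.05 in edgeR (all genes, 5.14%, and 0.00561% adjusted), where DESeq2 had 2 members (all genes in DESeq2, 5.29%, and 0.0742% adjusted). Boxers and Boston terriers differed by log2 fold changes of -0.17 (SE 0.89) for CIITA to 0.43 (SE 0.48) for CTSS, with 0 members at an unadjusted p under 0.05 by edgeR or DESeq2 (all genes, 3.57% unadjusted and 0% adjusted in edgeR, 3.95% and 0% in DESeq2). With 4 and 3 libraries, the interval for DLA-DRA between these breeds, -1.60 to 1.49, held a change of more than 2-fold in either direction. The comparisons with boxers and with Boston terriers share the French bulldog libraries.

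**Figure D2:**
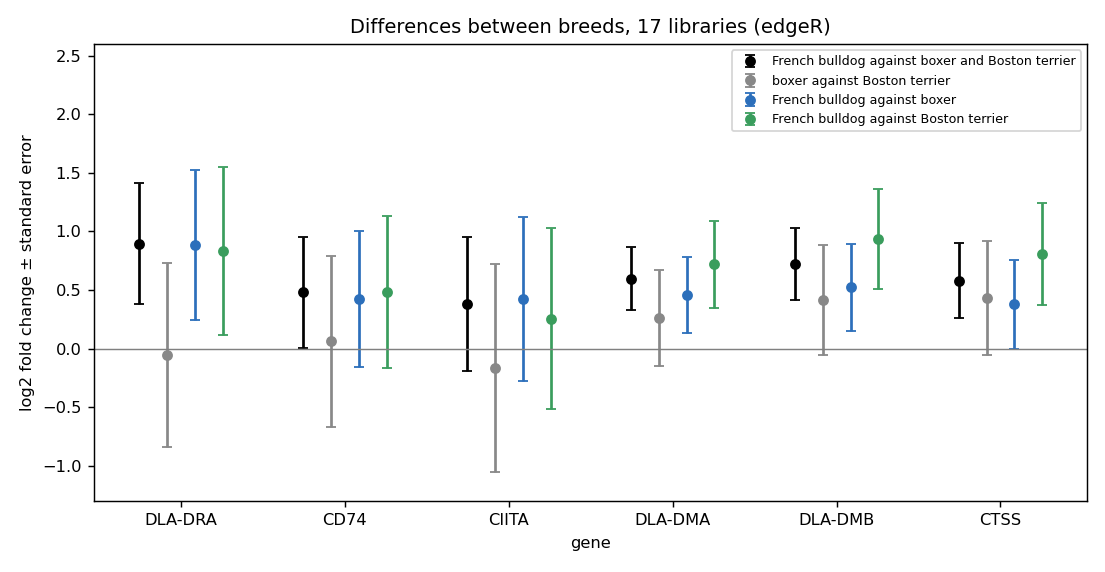
Log2 fold change of the 6 genes past the filter in the 4 breed comparisons (17 libraries, edgeR), with bars of 1 standard error. The fold changes of French bulldogs against the comparison group lie between 0.38 and 0.89, and those of boxers against Boston terriers on either side of 0.

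The members fell into a widely and a narrowly varying set. The SD of log2 CPM over the 17 libraries was 1.16 for DLA-DRA, 1.05 for CD74 and 1.18 for CIITA, where the median of all tested genes was 0.54, and these genes varied more than 87.7%, 84.1% and 88.4% of them. DLA-DMA (0.59), DLA-DMB (0.65) and CTSS (0.70) were nearer that median, at the percentiles 54.9, 60.1 and 64.3. The highest library held 13.2 times the lowest for DLA-DRA and 11.7 times for CD74, against 4.88 times for DLA-DMA and 5.13 times for DLA-DMB. For CIITA the ratio of 42.0 rests on 2 counts in French bulldog 2.

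DLA-DRA, CD74 and CIITA rose and fell together across dogs. Over the 17 libraries, Pearson's r of log2 CPM was 0.97 for DLA-DRA with CD74 (Spearman's rho 0.98), 0.93 for DLA-DRA with CIITA (rho 0.93) and 0.95 for CD74 with CIITA (rho 0.94). Each of these had the smallest p that 100000 permutations can give, 1e-05, or 7e-05 adjusted over the 21 pairs of members. They held without the 2 libraries farthest from the median (r 0.95, 0.91 and 0.93), within the 10 French bulldogs (r 0.99, 0.97 and 0.96) and within the 7 comparison libraries (r 0.94, 0.90 and 0.86). Of 16402 other genes, CD74 was the nearest to DLA-DRA by rho and CIITA ranked 4. All values of a library share its depth and its scaling.

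CTSS varied with the same genes, with r of 0.82 with DLA-DRA (rho 0.86, adjusted permutation p = 0.000252 for r and 0.000105 for rho) and 0.85 with CD74 (rho 0.84, adjusted permutation p = 0.000157 for r and 0.000105 for rho). Without the 2 farthest libraries r was 0.71 and 0.75. Within French bulldogs r was 0.91 and 0.94, and within the comparison group 0.48 and 0.70. DLA-DMA and DLA-DMB, which are neighbours on chromosome 12, correlated with each other with r of 0.78 (rho 0.87, adjusted permutation p = 0.00057 for r and 0.000105 for rho), with r of 0.69 without French bulldog 1 and Boston terrier 6, 0.72 within French bulldogs and 0.80 within the comparison group.

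DLA-DMA was apart from the DR and invariant chain genes. Its r was 0.33 with DLA-DRA (rho 0.33, adjusted permutation p = 0.245 for r and 0.292 for rho) and 0.29 with CD74 (rho 0.32, adjusted permutation p = 0.288 and 0.292). Without the 2 libraries farthest from the median these were 0.02 and -0.06. Within French bulldogs r was 0.41 and 0.39 and within the comparison group -0.25 and -0.07, and by rho it ranked 3100 among the genes nearest to DLA-DRA. French bulldogs 2 and 8, the libraries with a shared case number, bear on this: they had the lowest and the next lowest DLA-DRA (9.08 and 12.1 CPM), CD74 and CIITA of the 10 French bulldogs, while their DLA-DMA of 19.2 and 13.1 CPM was among the middle and upper values. Without these 2 libraries, a setting chosen after the values were seen, r was 0.64 for DLA-DMA with DLA-DRA and 0.66 with CD74. With French bulldog 6, r for DLA-DMA with DLA-DRA was 0.75 and rho 0.43.

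DLA-DMB was between the sets, with r of 0.72 with DLA-DRA (rho 0.63, adjusted permutation p = 0.00266 for r and 0.0168 for rho), or 0.53 without the 2 farthest libraries. Within French bulldogs r was 0.82 and within the comparison group, where DLA-DMB covered a range of 1.87 times, it was 0.10, a difference that was not tested.

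The pairs with DLA-DOA had r of 0.22 to 0.42. With DLA-DRA, r was 0.33 (rho 0.25, adjusted permutation p = 0.245 for r and 0.386 for rho), made of 0.70 within French bulldogs and -0.83 within the comparison group, and with counts of 0 to 24 a correlation of this size is no more than a description.

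**Figure D3:**
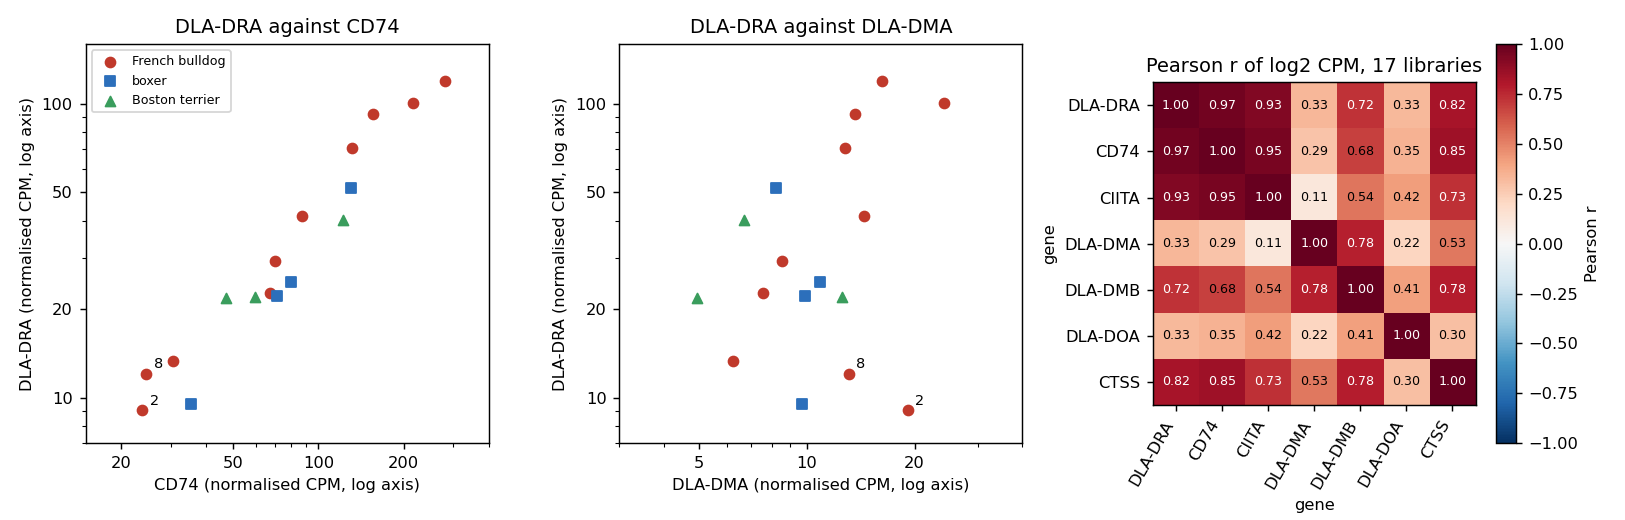
DLA-DRA against CD74 (left) and against DLA-DMA (middle) in normalised CPM on log axes for the 17 libraries, and Pearson's r of log2 CPM for each pair of the 7 genes (right). DLA-DRA and CD74 lie along a line (r 0.97), while French bulldogs 2 and 8, numbered, combine low DLA-DRA with middle to high DLA-DMA.

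Because 2 genes of the same library share its depth, their ratio can be compared without normalization, a comparison chosen after the values were seen. Per 100 counts of CD74, French bulldogs had 33.5 to 59.0 counts of DLA-DRA (median 45.2). Boxers had 26.7, 31.2, 39.6 and 31.2 and Boston terriers 37.0, 46.2 and 33.2. Every one of the 10 French bulldogs was above the comparison median of 33.2, and 5 were above its highest library, Boston terrier 6. The mean log2 ratio was -1.15 ± 0.23 (SD, n = 10) against -1.53 ± 0.26 (SD, n = 7), a difference of 0.38 or 1.30-fold. By an exact two-sided permutation test over 19448 splits, p was 0.00725, and 0.0833 adjusted over the 15 ratios among the 6 members, which did not pass. It was 0.44 against series A (exact permutation test, adjusted p = 0.0749) and 0.31 against series B (adjusted p = 0.629), with the 2 series apart from the French bulldog series as above. Against boxers alone it was 0.50 and passed (exact permutation test, adjusted p = 0.0450), and against Boston terriers alone 0.23 (adjusted p = 0.481). It also passed when French bulldog 9 (0.43, exact permutation test, adjusted p = 0.0328) or Boston terrier 6 (0.45, adjusted p = 0.0281) was left out. Over the 17 fits with a library left out the adjusted p ran from 0.0281 to 0.214 by the exact permutation test, and with French bulldogs 2 and 8 summed the difference was 0.39 (adjusted p = 0.113).

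For DLA-DRA to CIITA the difference in mean log2 ratio was 0.60 (exact permutation test, p = 0.0111, adjusted p = 0.0833), which did not pass either. With a library left out it was 0.49 to 0.71 and passed in 1 of 17 fits, without boxer 5 (0.71, exact permutation test, adjusted p = 0.0412), with an adjusted p of up to 0.214 in the others. It was 0.77 against series A (exact permutation test, adjusted p = 0.0749), 0.38 against series B (adjusted p = 0.746), 0.55 against boxers (adjusted p = 0.539) and 0.67 against Boston terriers (adjusted p = 0.481). The other 13 ratios had adjusted p-values of 0.708 or more. The proportion of DM to DR varied widely between dogs. Per 100 counts of DLA-DRA there were 211 counts of DLA-DMA in French bulldog 2, 108 in French bulldog 8 and 102 in boxer 1, where the remaining 14 libraries had 13.5 to 57.0.

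**Figure D4:**
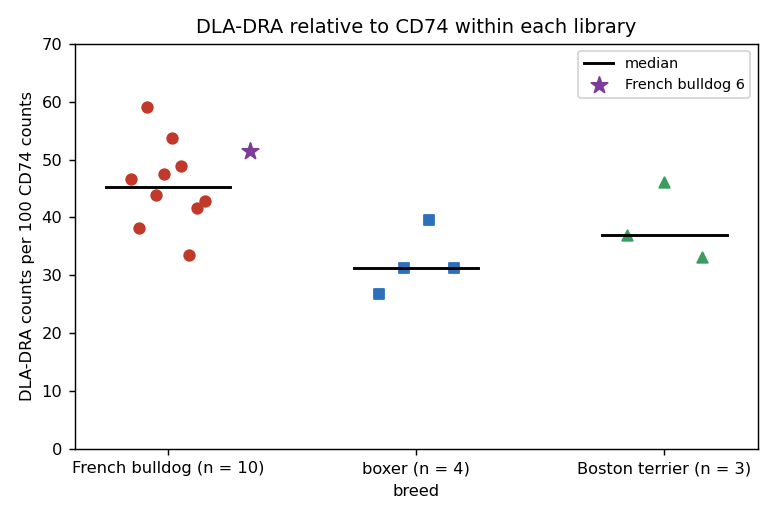
Counts of DLA-DRA per 100 counts of CD74 in each library, by breed, with a line for the median of each breed (French bulldog 6, a star, is not in it). French bulldogs lie between 33.5 and 59.0, boxers between 26.7 and 39.6 and Boston terriers between 33.2 and 46.2.

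The genes most like the 6 members, by Spearman's rho with their mean z-score over 17 libraries, were an unnamed gene (ENSCAFG00000000806), CYBB, C1QC, ADAP2, CXCL16, SAMD9L, PIK3AP1, CD163, TRAM2 and TRIM22, with rho from 0.93 down to 0.89. CYBB encodes the oxidase subunit of phagocytes, C1QC a chain of the complement component C1q and CD163 the hemoglobin scavenger receptor of macrophages. CXCL16 is a chemokine, and SAMD9L and TRIM22 are interferon-induced genes. None of the 10 was called between French bulldogs and the comparison group, with edgeR adjusted p-values of 0.461 for CD163 to 0.957 for PIK3AP1.

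Around the members, 37 other genes of the class II pathway were looked up, of which 29 were listed and 26 tested. By edgeR's test 0 of the 26 were called between French bulldogs and the comparison group (all genes, 0.0183%), with a smallest adjusted p of 0.365. Their fold changes were above 0 for 22 and below for 4, where 55.4% of all genes were above 0. The median log2 fold change was 0.25, and 0.05 over all genes. Unadjusted p-values under 0.05 were found for 4 with a higher fitted level in French bulldogs (NFYB, CREB1, CTSH and SPPL2A) and 2 with a lower one (MARCHF8 and CD4), where 10.8% of all genes had such a p and 6.92% also were higher in French bulldogs. CTSH, a lysosomal protease, had the largest log2 fold change at 0.65 (SE 0.30, edgeR adjusted p = 0.453). IRF1, an interferon-induced factor that acts on the CIITA promoter, had 0.63 (SE 0.46, edgeR adjusted p = 0.638), and 0.25 without French bulldog 11 (edgeR adjusted p = 0.852). CD4, the T cell receptor partner that binds class II molecules, had the lowest at -1.72 (SE 0.76, edgeR adjusted p = 0.441), with 0.409 to 11.1 CPM in French bulldogs and 0.966 to 44.3 CPM in the comparison group. The highest of these was Boston terrier 6, and the next comparison library had 12.6 CPM. Without Boston terrier 6 the log2 fold change of CD4 was -0.79 (SE 0.71, unadjusted p = 0.280, edgeR adjusted p = 0.795). MARCHF8, a ubiquitin ligase that takes class II molecules from the cell surface, had -0.57 (SE 0.20, edgeR adjusted p = 0.386).

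By function, the fitted fold change was above 0 for 9 of 9 lysosomal proteases and helpers (CTSS included), 5 of 5 interferon gamma signalling genes, 6 of 8 class II transcription factors (CIITA included), 3 of 4 co-stimulation and receptor genes and 1 of 2 ubiquitin ligases, beside 55.4% of all genes. No gene of any of these lists was called by edgeR in any of the 4 breed comparisons. Over the other 7 class II transcription factors, rho with DLA-DRA ranged from -0.63 for RFX5 to 0.58 for RFXANK, where CIITA had 0.93. RFX5 and RFXANK are subunits of the RFX complex that binds class II promoters. Of the proteases, CTSB (rho 0.80) and CTSH (rho 0.74) followed DLA-DRA most closely after CTSS. Interferon gamma itself, IFNG, had 0 counts in 12 of the 17 libraries. The other classical chains DLA-DRB1, DLA-DQA1 and DLA-DQB1, the DO beta chain DLA-DOB, and CTSL, CST3 and IFNGR2 were not analysed here.

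Macrophage and microglia markers moved with 5 of the 6 members. Summed over the 17 listed macrophage and microglia markers, levels were 86.4 to 561 CPM in French bulldogs (median 247) and 140 to 278 CPM in the comparison group (median 231), and none of the 17 was called between the groups. AIF1, CSF1R and C1QA, their defining genes, had at least 19, 105 and 49 counts in every library. The summed level correlated with CD74 at r of 0.93 (rho 0.89, permutation p adjusted over 36 relations = 0.00012 for r and 0.00072 for rho), at r of 0.93 without the 2 farthest libraries, at 0.94 within French bulldogs and at 0.87 within the comparison group. For DLA-DRA r was 0.86 (rho 0.83, adjusted permutation p = 0.00012 and 0.00084). It was 0.85 for CIITA, 0.85 for CTSS and 0.70 for DLA-DMB, with an adjusted p under 0.05 for each r, though not for the rho of DLA-DMB (0.54, adjusted permutation p = 0.0827). DLA-DMA, at r of 0.37 (rho 0.24, adjusted permutation p = 0.272 for r and 0.470 for rho), did not pass. The part of these cells in the spread of the members was not tested.

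Endothelial markers, summed over 5 genes, were 128 to 814 CPM in French bulldogs and 253 to 447 CPM in the comparison group. Their mean z-score correlated with the members at r of 0.25 for DLA-DMA to 0.80 for CD74, with an adjusted permutation p under 0.05 for r in 5 of 6. With DLA-DRA, r was 0.91 within French bulldogs and 0.29 within the comparison group, and with DLA-DMA 0.39 and 0.48. Of the 6 T cell markers only CD2 and CD5 passed the filter, so their mean z-score rests on these 2 genes. It correlated with DLA-DMA alone, at r of 0.78 (rho 0.79, adjusted permutation p = 0.0015 for r and 0.00174 for rho). Within French bulldogs this r was 0.84 and within the comparison group 0.46. Sums over the 6 T cell markers were 2.29 to 11.5 CPM in French bulldogs and 2.03 to 6.24 CPM in the comparison group. The defining T cell genes were near 0 in the 17 libraries, with at most 6 counts of CD3E and 0 counts of CD3D in 15. B cell markers (52.9 to 133 CPM and 61.6 to 123 CPM), dendritic cell markers (20.5 to 47.5 CPM and 21.6 to 53.9 CPM) and oligodendrocyte lineage markers (2323 to 8689 CPM and 2161 to 3836 CPM) correlated with 0 of 6 members at an adjusted p under 0.05 for r, although rho of the dendritic cell markers with DLA-DMB was 0.71 (adjusted permutation p = 0.00868). The mean z-score of the B cell markers rests on CD79A alone and that of the dendritic cell markers on 3 genes. For the oligodendrocyte lineage, r with DLA-DRA was -0.61 within French bulldogs and 0.65 within the comparison group, and with DLA-DMA 0.21 and 0.34. The B cell gene MS4A1 had at most 7 counts in each of the 17 libraries, and the dendritic cell gene FLT3 had at least 124. Of the marker genes tested, 0 were called between the groups by edgeR and 1, of the oligodendrocyte lineage, had an unadjusted p under 0.05, and the part of these cells in the levels of the members was not tested.

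French bulldog 6, the library set apart, had the highest level of all 7 members among the 18 libraries. Scaled with the others, DLA-DRA was 1753 CPM where the other 17 had 8.92 to 115 CPM, CD74 was 3404 CPM against 23.4 to 268 CPM, and CIITA was 133 CPM against 0.223 to 9.12 CPM. These are 71.1, 47.9 and 56.5 times the median of the other libraries. CTSS, at 875 CPM, was 42.8 times that median. DLA-DMA at 117 CPM and DLA-DMB at 118 CPM were 10.8 and 16.8 times it, and DLA-DOA, at 4.48 CPM or 43 counts, 10.7 times.

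Of all 16403 genes tested, 20.7% were above every other library in French bulldog 6 and 2.73% were at least 10-fold above the median, and the median gene was at 0.853 times. The widely varying DLA-DRA, CD74 and CIITA were raised more than DM, and the DM to DR proportion was the lowest of the 18 libraries, at 6.66 counts of DLA-DMA per 100 of DLA-DRA. DLA-DRA per 100 counts of CD74 was 51.5, within the range of the other French bulldogs.

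The same library went against its tumor label in the oligodendrocyte lineage: OLIG2 and NKX2-2 had 0 counts, SOX10 2 and OLIG1 4, and 8 of 8 lineage markers were below every other library. Macrophage and microglia markers summed to 8685 CPM, and 14 of 17 were above all others, among them AIF1 (1158 counts against 19 to 125) and C1QA (6157 against 49 to 588), while CX3CR1, a microglial receptor, was below all others with 24 counts. T cell markers were above all others in 6 of 6 (CD3E with 214 counts) and B cell markers in 4 of 5 (MS4A1, 25 counts). Dendritic cell markers were mixed, with 3 of 5 above all others (XCR1 with 244 counts and BATF3 with 166 among them). FLT3 was at 1.04 times the median and ZBTB46 below all others. Of 5 endothelial markers, 0 were above and 2 below all others. Of the pathway genes, IRF1 was at 23.6 times and MARCHF1, a ligase of class II turnover, at 23.1 times the median, whereas RFX5 was at 1.46 times. The part of these cells in its class II levels was not tested. This is 1 library, so no test was made.

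**Figure D5:**
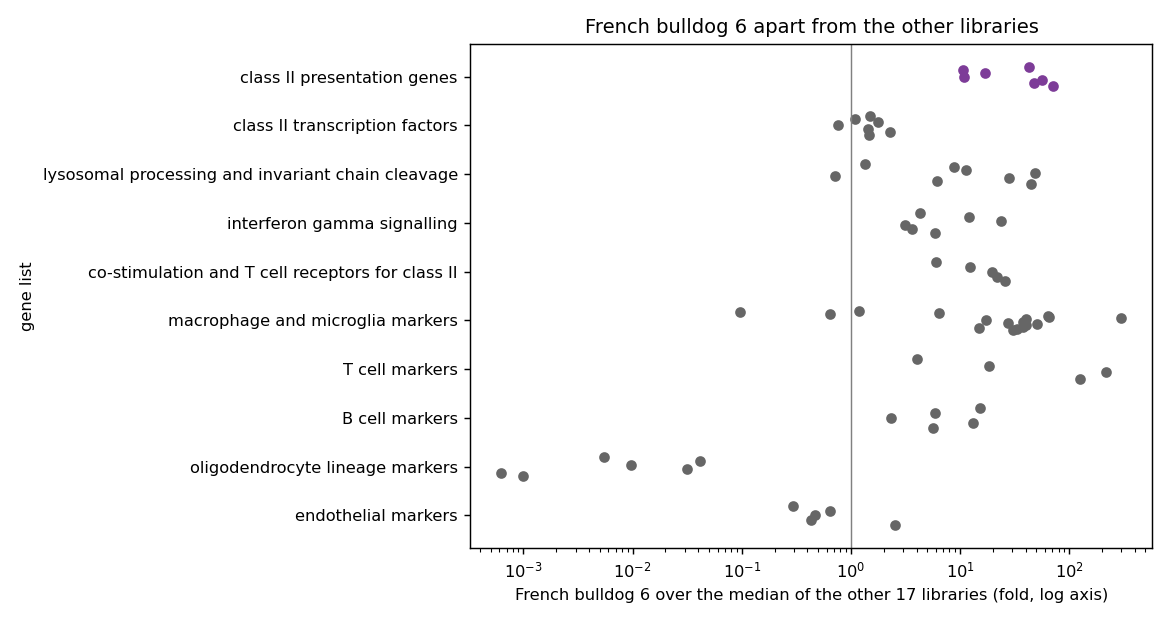
Level in French bulldog 6 over the median of the other 17 libraries (fold, log axis) for each gene of the members and of the pathway and marker lists shown, a point each, with the members left out of the pathway lists. Dendritic cell markers and the ubiquitin ligases of class II are not shown. Genes with 0 counts in French bulldog 6 (OLIG2, NKX2-2) or a median of 0 elsewhere (IFNG, CD3D, CD8A) have no point. The members lie between 10.7 and 71.1, and oligodendrocyte lineage markers at 0.0413 or less.

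With French bulldog 6 in the fit of French bulldogs against the comparison group, the log2 fold changes were 1.33 for DLA-DMA to 2.90 for DLA-DRA. All 6 members then had an unadjusted p under 0.05, as did 10.6% of all genes in that fit. None of the 6 passed after adjustment (edgeR adjusted p = 0.433 to 0.442), where 0.00606% of all genes, a single one, did. The fold change of CIITA moved most with this single library, from 0.38 to 2.55.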

How the data were processed

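FFPE scrolls of 18 HGO samples were sequenced as total RNA libraries. The authors trimmed the reads with Trimmomatic 0.33, mapped them with HISAT2 2.1.0 to the Dog10K_Boxer_Tasha (canFam6) assembly and assigned them to genes with featureCounts. The deposited values were raw, unnormalized counts of 29993 genes, 16324 with a symbol. Strand and multi-mapping settings are not given in the sources used here, so reads shared by overlapping or similar genes (a long non-coding RNA overlaps CTSS) could not be separated, and the sources differ on the sequencer.

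Groups came from the labels' breed. The members and gene lists were chosen with earlier results of these data known. The main test was edgeR 4.0.16 (R 4.3.3) with TMM, filterByExpr, robust quasi-likelihood dispersions, no covariate and two-sided tests, and p-values were adjusted over all genes tested by the method of Benjamini and Hochberg, with standard errors from the F statistic. French bulldogs were compared with both other breeds in a 2-group fit and with each breed in a 3-breed fit. Correlations used log2 CPM (prior count 2) and 100000 permutations, and ratios a pseudocount of 0.5 counts. Alternatives were DESeq2 1.42.0, limma-voom 3.58.1, other normalizations and filters, libraries left out, summed or restricted, and a replicate block. All fits were first tested on simulated counts.

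Named genes were the 7 members, the pathway genes with the 2 largest and 2 smallest fold changes (none passed the test), the 10 genes nearest to the members, and defining markers. NFYB, CREB1, SPPL2A, RFX5, RFXANK, CTSB, IFNG, MARCHF1, CX3CR1, OLIG1, NKX2-2, CD3D, CD8A, CD2, CD5, CD79A, XCR1, BATF3 and ZBTB46 were named after their values were seen. Chromosomes and neighbours came from RefSeq's UU_Cfam_GSD_1.0 table, another assembly, so no positions are given. Results for some items of the lists are not reported here. Python 3.11.15 with pandas 2.3.3, scipy 1.17.1 and matplotlib 3.10.9 served for tables, permutations and plots.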

Additional observations from a re-analysis of the deposited data

Results flagged for a closer look

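Each of the 7 members stood out in French bulldog 6, a library outside the breed comparisons, above the highest of the other 17 libraries: DLA-DRA at 1753 CPM, CD74 at 3404 CPM, CIITA at 133 CPM, DLA-DMA at 117 CPM, DLA-DMB at 118 CPM, DLA-DOA at 4.48 CPM and CTSS at 875 CPM. In the 17 libraries compared, a search for single libraries far from the rest of their breed (French bulldogs and boxers, 14 tests with Dixon's criterion, of which chance would pick out about 1 in 20) found 0.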

How the results depend on the processing

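No member was called in any of the 4 breed comparisons under any alternative that was run, or with any library left out. For all genes, French bulldogs against the comparison group gave 3 calls. There were 76 with DESeq2, 1 with French bulldog 6, 1 without French bulldogs 2 and 8, and 0 with these 2 summed, against series A or against series B. With each library left out the count was 0 to 9. Against boxers it was 0 (35 with DESeq2, 0 to 4 with a library left out), against Boston terriers 1 (20 with DESeq2, 0 to 2), and between boxers and Boston terriers 0 (0 to 1).

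Label numbers held by both groups (1, 2, 3, 4, 5 and 7) did not pair the libraries, as the correlation of their deviations was -0.46 to 0.20. A replicate block over these numbers called 0 genes, and the same libraries without the block also 0. The block changed no call of a member.

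Of the fold changes of members under all alternatives, 607 kept their sign and side of the threshold and 12 changed sign. Signs reversed only where neither value passed the test. The log2 fold change of CIITA against the comparison group was -0.044 with limma-voom. With a library left out, that of CIITA against Boston terriers was -0.044 (without French bulldog 11) to 0.69. Between boxers and Boston terriers the range was -0.58 to 0.29 for DLA-DRA, -0.69 to 0.23 for CIITA, -0.30 to 0.56 for CD74 and -0.21 to 1.11 for DLA-DOA. In these ranges the sign turned without boxer 1, boxer 3 or Boston terrier 7 for DLA-DRA, without boxer 1, boxer 5 or Boston terrier 7 for CIITA, without Boston terrier 2, boxer 4 or Boston terrier 6 for CD74, and without Boston terrier 7 for DLA-DOA. The log2 ratio of DLA-DRA to CD74 was 0.38. It was 0.32 to 0.45 with a library left out, 0.50 against boxers only and 0.23 against Boston terriers only. Of the 21 member correlations, 17 moved by 0.1 or more with French bulldog 6 and 7 with French bulldogs 2 and 8 summed. The causes of these changes were not tested. A minimum of 10 counts in every library left no value for CIITA or DLA-DOA.

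These libraries have 7 comparison dogs, library series that cannot be told apart from French bulldog against comparison, and counts of DLA-DOA at or under 3 in 7 of 17 libraries, so a difference in that gene was not detectable.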
